A study of Homo sapiens with 6 samples.

Results

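UDP-glucuronosyltransferases (UGTs) of androgen metabolism were examined in C4-2B prostate cancer cells that had acquired resistance to enzalutamide. The group holds 8 genes, UGT2B7, UGT2B10, UGT2B11, UGT2B15, UGT2B17, UGT2B28, UGT2A3 and UGT1A6, which were taken by name from the 58024 genes of the expression table. All 8 are listed there, among 32 UGT genes and pseudogenes. RNA-Seq expression was compared between 3 parental and 3 enzalutamide resistant C4-2B libraries, and is given in FPKM, the number of sequenced fragments on a transcript divided by its length and by the library's mapped fragments. C4-2B is an established bone-metastatic line that descends from LNCaP cells by way of the C4-2 subline. The resistant cells were the pooled survivors of stepwise passage in 1 to 20 µM enzalutamide, an antiandrogen, for no less than 6 months, and 5 µM drug was used for their maintenance. The parental cells were passaged in the vehicle dimethyl sulfoxide, for which the sources give different concentrations. RNA was extracted after exposure to 10 µM enzalutamide, and whether the parental cells also received that dose is not clear from the sources. Both groups grew in RPMI-1640 medium with 10% fetal bovine serum. The resistant population is a single selected line, and the sources do not say that the 3 libraries of a group came from separate cultures, so p values measure the spread between these libraries, which may be technical.

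UGT enzymes sit in the membrane of the endoplasmic reticulum and join glucuronic acid from the cofactor UDP-glucuronate to small lipophilic molecules, which makes them water soluble and ready for export. In the prostate, UGT2B15 and UGT2B17 are the enzymes best known for conjugating dihydrotestosterone and its reduced metabolites, a step that removes active androgen irreversibly from the cell. UGT2B28 and UGT2B7 also accept steroids, UGT2B10 is known for joining glucuronic acid to amines such as nicotine, UGT2B11 has few well defined substrates, UGT2A3 is known for bile acids, and UGT1A6 acts on small planar phenols. The name of the group therefore covers enzymes whose activity towards androgens differs widely. In LNCaP cells, androgen is known to lower UGT2B15 and UGT2B17 transcripts.

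C4-2B enzalutamide resistant cells expressed more UGT2B15 and much less UGT2B28 and UGT2B11 than parental cells. To show how alike the upstream sequences of genes with opposite changes are, the 250 bases before the transcription start of UGT2B15, which rose, of UGT2B11, which fell, and of UGT2B10, which did not pass the test, are given 5′ to 3′ on the strand of the gene, from RefSeq on GRCh38.p14. Capitals mark exact matches, on either strand, to the FOXA motifs TGTTTAC and TATTTAC. The stretches lie at chr4:68670653-68670902 (minus strand) for UGT2B15, at chr4:68815744-68815993 (plus strand) for UGT2B10 and at chr4:69214749-69214998 (minus strand) for UGT2B11.
UGT2B15: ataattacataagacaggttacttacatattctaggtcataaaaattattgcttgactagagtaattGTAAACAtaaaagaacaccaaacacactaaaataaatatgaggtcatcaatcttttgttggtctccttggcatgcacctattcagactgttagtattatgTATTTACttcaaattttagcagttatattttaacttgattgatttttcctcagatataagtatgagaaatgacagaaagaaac
UGT2B10: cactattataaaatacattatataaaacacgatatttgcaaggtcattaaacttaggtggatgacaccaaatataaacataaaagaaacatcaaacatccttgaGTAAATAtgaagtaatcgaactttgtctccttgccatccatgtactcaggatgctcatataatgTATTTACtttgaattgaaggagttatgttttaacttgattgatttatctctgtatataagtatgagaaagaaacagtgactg
UGT2B11: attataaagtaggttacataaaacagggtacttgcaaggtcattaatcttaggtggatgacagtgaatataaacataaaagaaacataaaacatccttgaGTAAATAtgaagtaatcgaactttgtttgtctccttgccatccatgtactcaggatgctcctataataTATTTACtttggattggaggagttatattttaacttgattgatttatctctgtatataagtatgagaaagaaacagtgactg
The UGT2B10 and UGT2B11 stretches were identical at 93.1% of 246 aligned bases, although these genes did not share a call. UGT2B15 was identical to UGT2B10 at 77.4% of 235 aligned bases and to UGT2B11 at 77.4% of 239. By the same measure, which leaves out gaps, an entry of UGT1A6 was identical to UGT2B10 at 56.8% of 213 aligned bases. For UGT2B11 it was 57.3% of 218 and for UGT2B15 60.9% of 202. Of the 8 members, 6 had a promoter entry in the RefSeq table (UGT2B7, UGT2B10, UGT2B11, UGT2B15, UGT2A3 and UGT1A6). TATTTAC was found in the entries of UGT2B15, UGT2B10 and UGT2B11, and in 2.41% of all 34788 entries of the same length. In each of these genes, 1 match lies on the gene's own strand between bases -83 and -76 from the start. TGTTTAC occurred in UGT2B15 alone among the members, at bases -183 to -177, and in 2.98% of all entries. GCGTG, the core bound by the aryl hydrocarbon receptor (AHR), was matched in UGT1A6 alone of the members, against 32.2% of all entries. TGACNNNGC, the core bound by NRF2, was matched in UGT2B10, UGT2B11 and UGT1A6, against 10.9%. These motifs were searched on both strands, and a match describes letters and not a bound site.

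The libraries were similar in depth, estimated at 13400000 to 20300000 reads, so that 1 read on the UGT2B15 transcript was worth between 0.0255 and 0.0386 FPKM. The Pearson r over genes, which do not count as replicates, was 0.911 to 0.929 within a group and 0.782 to 0.802 between groups. Of 10 prostate luminal markers, all were above 0 in every library, and 2 rose and 7 fell in the resistant cells, with 1 higher when parental replicate 1 or 2 or any resistant library was left out. KRT18, a luminal keratin, had 201 to 249 FPKM in parental and 152 to 167 FPKM in resistant libraries. KRT8, another luminal keratin, had 125 to 155 FPKM in parental and 160 to 179 FPKM in resistant libraries. It was called higher (log2 fold change 0.30, limma adjusted p = 0.0466), and is the marker whose call was lost without those libraries. The call was also lost with all genes above 0 in any library and without the variance trend (limma adjusted p = 0.0640 and 0.139). KRT8 is named after its values were seen. KLK3, which encodes the prostate specific antigen and is a classical androgen-induced gene, fell from between 2321 and 2857 FPKM to between 41.8 and 46.8 FPKM, a log2 fold change of -5.85 (SE 0.09, limma adjusted p = 1.10e-06).

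UGT2B15 (ENSG00000196620.9, table locus chr4:68646629-68670628, minus strand) was the most abundant member in 5 of 6 libraries, and in parental replicate 1 it was level with UGT2B28. It had 1.35, 1.22 and 1.68 FPKM in parental libraries and 4.49, 4.43 and 5.05 FPKM in resistant libraries. Every resistant library was above every parental library, and the groups were separated by a wide gap compared to the spread within each. The means were 1.41 ± 0.237 FPKM and 4.66 ± 0.339 FPKM (SD, n = 3 each), a ratio of 3.29. On the scale of log2(FPKM + 0.1), UGT2B15 rose by 1.66 (SE 0.20) with an adjusted p of 9.71e-04 by limma with Benjamini-Hochberg adjustment over 24468 genes. The values correspond to an estimated 43.5 to 52.9 reads in parental libraries and 138.9 to 150.4 reads in resistant libraries.

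UGT2B28 (ENSG00000135226.17, chr4:69280498-69295050, plus strand) was the second most abundant member in the parental cells by its mean. Its values were 0.672, 1.23 and 1.01 FPKM in the parental libraries, and it was listed at 0 in all 3 resistant libraries. It fell with an adjusted p of 9.06e-04 in the same limma fit, and no fold change is given against a group at 0. The parental values stand for an estimated 22.6, 39.7 and 22.4 reads.

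UGT2B11 (ENSG00000213759.9, chr4:69181659-69216766, minus strand), the member nearest to UGT2B28 in the cluster, also fell. It had 0.667, 0.709 and 0.655 FPKM in parental libraries and 0, 0.101 and 0 FPKM in resistant libraries. The resistant value above 0 stands for an estimated 3.1 reads, against 16.7 to 26.4 reads in the parental libraries. UGT2B11 fell by 2.62 on the log2(FPKM + 0.1) scale (SE 0.45, limma adjusted p = 0.00415). The size of that fall depends on the pseudocount, with log2 fold changes of -0.70 at 1 FPKM and -4.95 at 0.01 FPKM, while the call held at both.

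UGT2B17 (ENSG00000197888.2, chr4:68537183-68568527, minus strand), the closest relative of UGT2B15 among the members, did not pass the test. It had 0.198, 0.409 and 0.222 FPKM in parental libraries and 0.409, 0.106 and 0.241 FPKM in resistant libraries. The groups overlapped over almost their whole range. The log2 fold change was -0.15 (95% confidence interval -1.36 to 1.06, limma adjusted p = 0.834), an interval that does not include the fitted change of UGT2B15. The difference between the changes of both genes was not tested. Without parental replicate 1 the value was 0.088 and without resistant replicate 1 it was 0.19, so its sign is not fixed by these libraries.

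UGT2B10 (ENSG00000109181.11, chr4:68815992-68831196, plus strand) had 0.226, 0 and 0.0444 FPKM in parental libraries and 0.415, 0.377 and 0.242 FPKM in resistant libraries. All resistant values were above all parental ones, by a small margin at the closest pair. The log2 fold change of 1.39 (95% confidence interval 0.012 to 2.76) did not pass the threshold, with a limma adjusted p of 0.0943. Without parental replicate 0, the library nearest to the resistant ones, the log2 fold change was 1.87 and the adjusted p 0.0427.

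UGT1A6 (ENSG00000167165.18, chr2:233617644-233773310, plus strand) is the member outside the UGT2 cluster, and its locus in the table spans the start sites of several UGT1A genes. It had 0.10, 0.495 and 0.312 FPKM in parental libraries and 0.751, 0.377 and 0.139 FPKM in resistant libraries. The groups overlapped, and the highest value of all was in the resistant group. The log2 fold change was 0.33 (95% confidence interval -1.25 to 1.91, limma adjusted p = 0.711), and it was -0.107 without parental replicate 0 and -0.115 without resistant replicate 0.

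The last pair lay below the filter of 0.1 FPKM on the mean and was not tested. UGT2B7 (ENSG00000171234.13, chr4:69051362-69112987, plus strand) was listed at 0 in parental libraries and had 0.0862, 0 and 0.0828 FPKM in resistant libraries, an estimated 2.5, 0 and 2 reads. UGT2A3 (ENSG00000135220.10, chr4:68928462-68951791, minus strand) was listed at 0 in all 6 libraries.

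**Figure D1:**
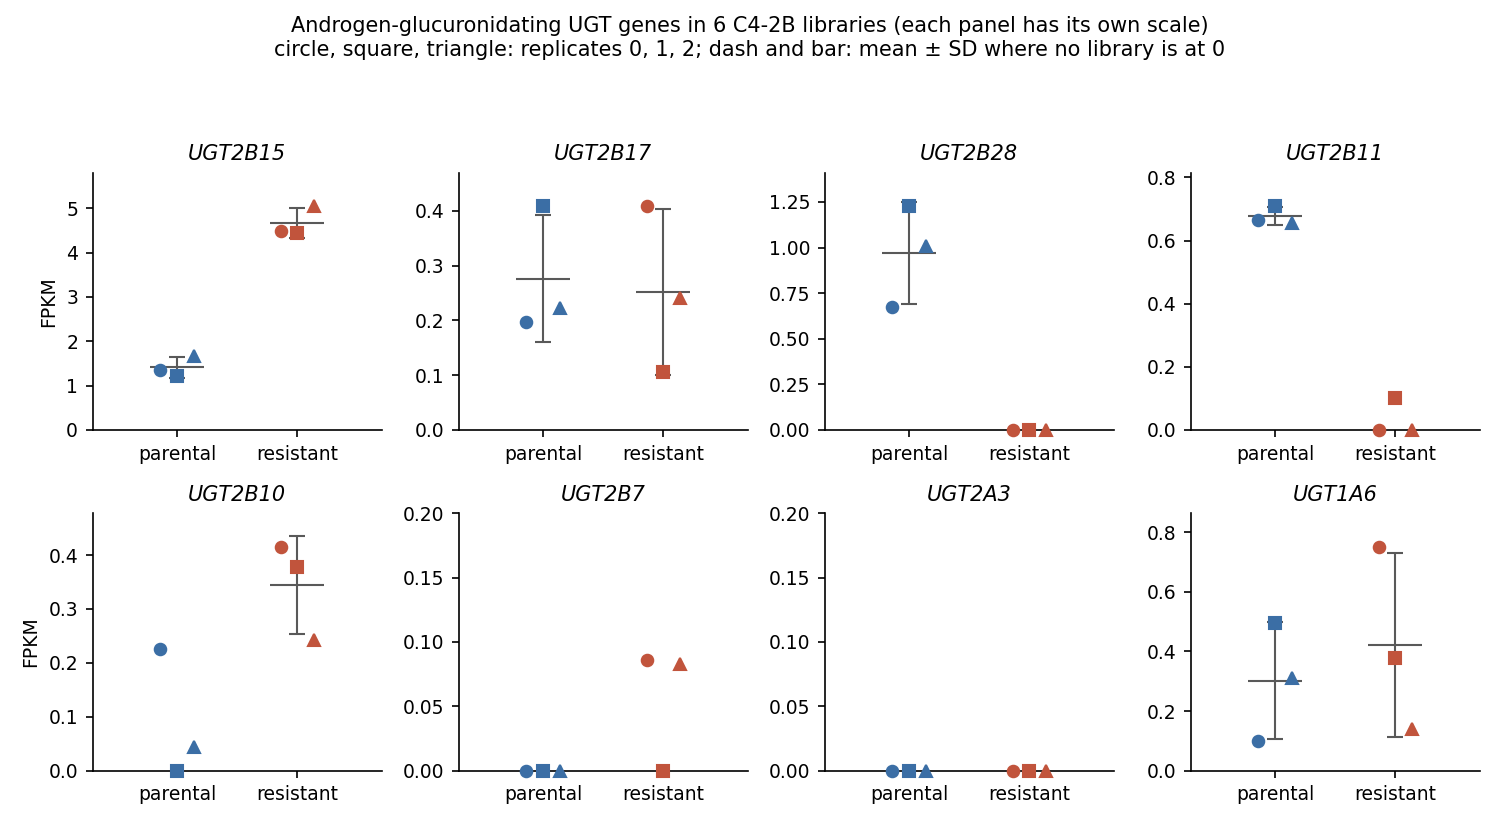
FPKM of the 8 UGT members in each of 3 parental (blue) and 3 resistant (red) libraries, with a scale of its own for each gene. Circles, squares and triangles are replicates 0, 1 and 2, and dashes with bars give the mean ± SD where no library of the group is at 0. UGT2B15 sits between 1.22 and 1.68 FPKM in parental and between 4.43 and 5.05 FPKM in resistant libraries, while all 3 resistant UGT2B28 values are at 0.

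Of the 6 members that passed the filter, 1 (UGT2B15) was called higher in the resistant cells, 2 (UGT2B28 and UGT2B11) were called lower and 3 (UGT2B17, UGT2B10 and UGT1A6) were not past the threshold. Over all 24468 genes tested, 22.1% were called higher and 22.3% lower, 44.4% in all, so that the share of members called is close to that of genes in general. The groups did not overlap for 4 members (UGT2B15 and UGT2B10 above, UGT2B28 and UGT2B11 below), against 54.8% of all genes tested (26.6% above and 28.1% below). Over the 5 members with no group at 0 the median log2 fold change was 0.33, against -0.08 over the 21925 such genes. That median is the value of UGT1A6 and leaves out UGT2B28, which was called lower. Over all 6 tested members the median was 0.09, against -0.05 over the 24468 genes. An exact permutation test of a single gene cannot give a p below 0.1 with 3 libraries against 3, and none is reported.

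The order of levels below UGT2B15 differed between the groups. In the parental cells, UGT2B28 and UGT2B11 followed UGT2B15, each above UGT2B17, UGT2B10 and UGT1A6 in every library. In the resistant cells UGT1A6, UGT2B10 and UGT2B17 came next to UGT2B15, and these 3 cannot be ordered because their values overlap. FPKM is scaled to transcript length, so these levels can be compared between genes.

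Summed over the 6 UGT2B members, expression was 3.11, 3.56 and 3.61 FPKM in parental libraries and 5.40, 5.01 and 5.61 FPKM in resistant libraries, a ratio of means of 1.56 (3.43 ± 0.275 and 5.34 ± 0.303 FPKM, SD, n = 3 each) with no overlap. UGT2B15 made up 43.3%, 34.2% and 46.5% of this sum in parental libraries and 83.2%, 88.4% and 89.9% in resistant libraries. UGT2B28 held 21.6%, 34.4% and 27.9% of the parental sums and was listed at 0 in the resistant ones. UGT2B11 went from between 18.2% and 21.4% to at most 2.01%. UGT2B17 held 6.16% to 11.5% in parental and 2.12% to 7.56% in resistant libraries, and UGT2B10 0 to 7.28% and 4.32% to 7.68%. The parental sum was thus a mixture of UGT2B15, UGT2B28 and UGT2B11, while UGT2B15 made up most of the resistant one. UGT2B4, another UGT2B gene that is not a member, lowers these shares when it is added to the sum, to 65.9%, 68.4% and 70.1% for UGT2B15 in resistant libraries, where UGT2B4 held 20.8%, 22.6% and 22.0%. The summed level then was 3.44 ± 0.253 FPKM in parental and 6.83 ± 0.359 FPKM in resistant libraries (SD, n = 3 each), a ratio of means of 1.99. UGT2B15 and UGT2B17, the main enzymes of dihydrotestosterone conjugation, together had 1.54 to 1.90 FPKM in parental and 4.54 to 5.29 FPKM in resistant libraries, a ratio of means of 2.90.

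**Figure D2:**
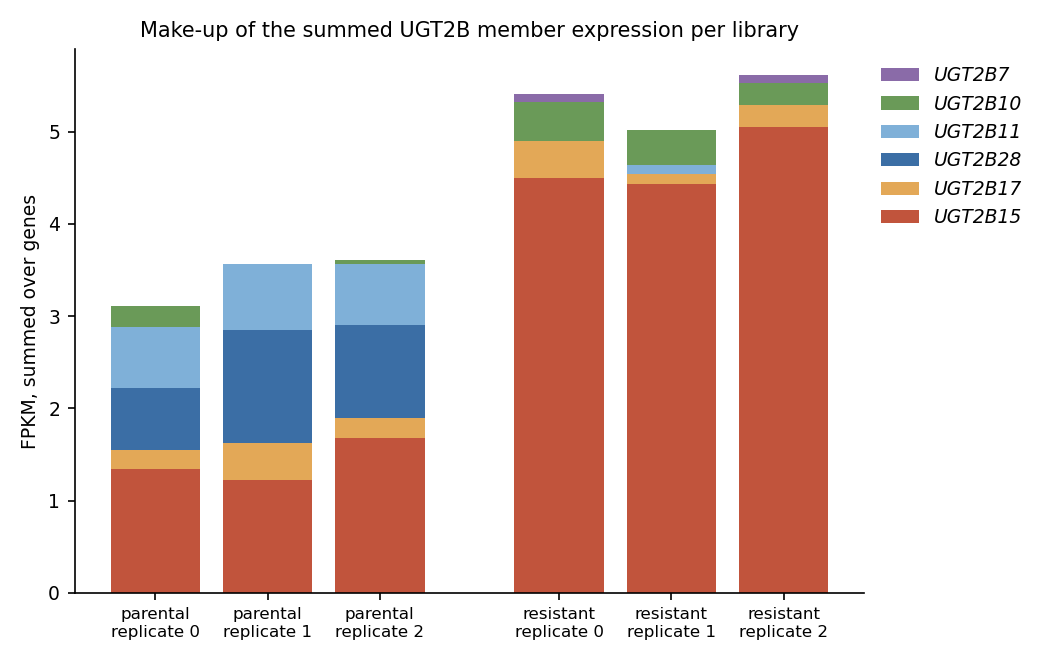
Stacked FPKM of the 6 UGT2B members in each library, with the 3 parental libraries on the left and the 3 resistant libraries on the right. The height of a bar is the summed FPKM, 3.11 to 3.61 in parental and 5.01 to 5.61 in resistant libraries, and the UGT2B15 segment grows from at most 46.5% to at least 83.2% of it.

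Members of this family are near copies of each other, and reads of 50 bases cannot always be placed. The aligned transcripts of UGT2B11 and UGT2B28 were identical at 96.9% of bases and those of UGT2B15 and UGT2B17 at 92.1%. Of the 50-base windows of the UGT2B11 transcript, 40.5% also occur without mismatch in the transcript of another gene, and the share was 35.2% for UGT2B28, 27.1% for UGT2B15, 23.3% for UGT2B17 and 22.0% for UGT2B10. For UGT1A6 it was 59.7%, since all UGT1A genes share their last exons, and for UGT2B7 and UGT2A3 it was 6.74% and 5.39%. UGT2B15 shared 557 of its windows with UGT2B17 and none with UGT2B28 or UGT2B11. UGT2B11 and UGT2B28 shared 369 windows and fell together, so how the authors' tool split reads between them is uncertain, and the same holds for UGT2B15 and UGT2B17. The sum of a pair is not changed by the split within it. UGT2B11 and UGT2B28 together had 1.34, 1.94 and 1.66 FPKM in parental libraries and 0, 0.101 and 0 FPKM in resistant libraries. This sum is still open to misplaced reads of other genes. UGT2B11 also shared 456 windows with the pseudogene UGT2B25P, 280 with the pseudogene UGT2B24P and 199 with UGT2B10. For UGT2B28 these numbers were 256, 314 and 101.

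Among the 14 other UGT genes of the table, 4 passed the filter, of which 3 rose and 0 fell in the limma test (4 and 0 at an unadjusted p below 0.05). UGT2B4, a neighbour in the same cluster known for conjugating bile acids and steroids, had 0.0387, 0 and 0 FPKM in parental libraries and 1.42, 1.46 and 1.58 FPKM in resistant libraries. It rose by 3.83 on the log2(FPKM + 0.1) scale (SE 0.36, limma adjusted p = 3.52e-04), and all resistant values were far above all parental ones. With pseudocounts of 1 and 0.01 FPKM the log2 fold change was 1.30 and 6.47, since the parental level was near 0, and the call held at both. Next to UGT2B15 it was the most abundant UGT2B gene of the resistant cells, and 3.17% of its windows occur in other transcripts. UGT1A1, the enzyme of bilirubin conjugation, went from 0, 0.0556 and 0 FPKM to 0.682, 0.854 and 0.697 FPKM, a rise of 2.86 (SE 0.41, limma adjusted p = 0.00189) that was 0.78 and 5.33 with these pseudocounts. UGT1A10 was listed at 0 in parental libraries and had 0.145, 0.0803 and 0.872 FPKM in resistant libraries (limma adjusted p = 0.0872). It passed the threshold with a pseudocount of 0.01 FPKM (limma adjusted p = 0.0217). Because the UGT1A genes share their last exons, their sum is the firmer value. It was 0.202, 0.550 and 0.447 FPKM in parental and 1.65, 1.64 and 1.87 FPKM in resistant libraries, a ratio of means of 4.30 over 9 genes with no overlap, although UGT1A6 itself did not pass the test. UGT8, which adds galactose to ceramide and has no part in glucuronidation, rose from between 7.10 and 11.1 FPKM to between 26.1 and 29.6 FPKM (log2 fold change 1.72, SE 0.18, limma adjusted p = 5.62e-04).

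Glucuronidation needs UDP-glucuronate, which is made in the cytosol from glucose and carried into the endoplasmic reticulum. Of 11 genes of its supply and use, 3 rose, 3 fell and 5 did not pass the test, with a median log2 fold change of 0.17. UGDH, which oxidises UDP-glucose to UDP-glucuronate, rose from 29.9, 28.4 and 31.7 FPKM to 194, 199 and 196 FPKM. The log2 fold change was 2.71 (SE 0.07, limma adjusted p = 3.76e-06), and the libraries of each group lay close together. SLC35D1, which brings UDP-glucuronate into the endoplasmic reticulum, rose from 0.125, 0.130 and 0.104 FPKM to 3.45, 4.71 and 3.59 FPKM (log2 fold change 4.18, SE 0.29, limma adjusted p = 1.00e-04), and a value of 2.13 was found at a pseudocount of 1 FPKM. Its relative SLC35D2 rose by 0.76 (SE 0.14, limma adjusted p = 0.00489). UXS1, which draws UDP-glucuronate off towards UDP-xylose, fell by 0.75 (SE 0.14, limma adjusted p = 0.00592). The hexokinases at the head of the route, HK1 and HK2, fell by 0.72 and 0.63 (limma adjusted p = 0.00141 and 0.00635). GUSB, the lysosomal enzyme that splits glucuronides, had 29.1 to 37.7 FPKM in parental and 33.3 to 40.1 FPKM in resistant libraries, and SLC35B1, an endoplasmic reticulum nucleotide carrier, had 70.3 to 81.0 and 81.8 to 103 FPKM, neither past the threshold. SLC35B1 passed it with quantile normalization (limma adjusted p = 0.0306).

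**Figure D3:**
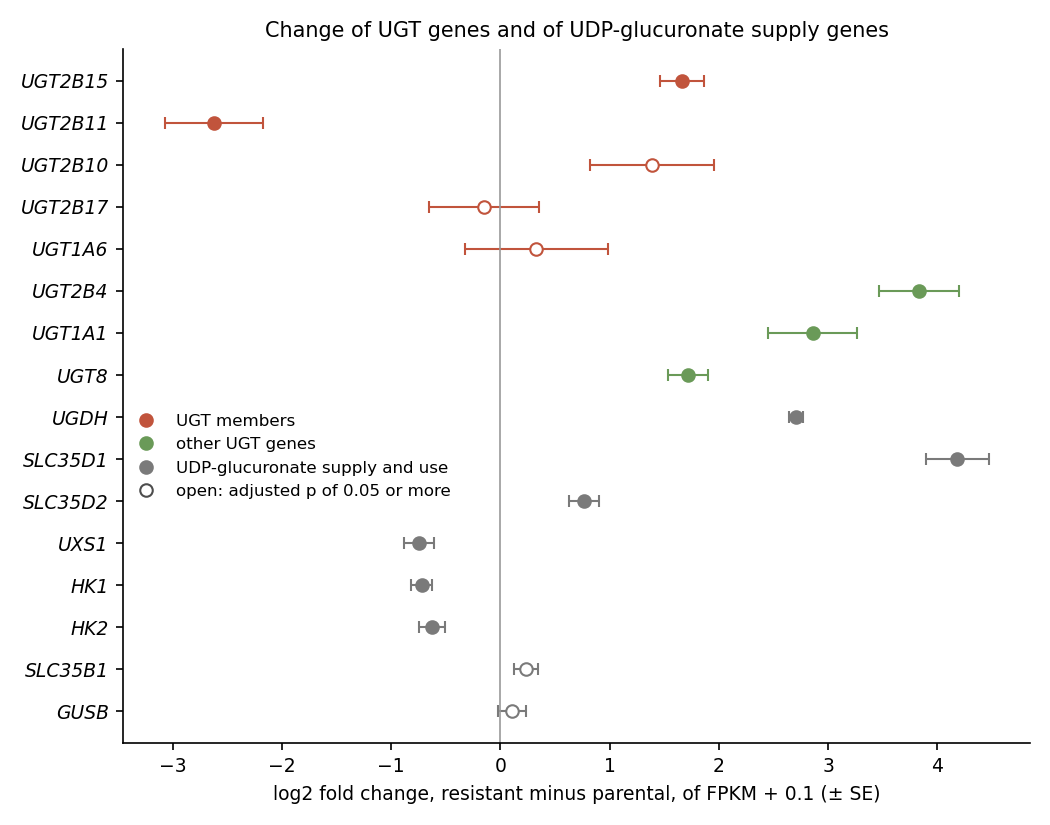
Log2 fold change (resistant minus parental, FPKM + 0.1) with its SE for the 5 members that have a fold change, for 3 other UGT genes and for 8 genes of UDP-glucuronate supply and use. Filled points have an adjusted p below 0.05, and UGT2B15 (1.66), UGT2B4 (3.83), UGDH (2.71) and SLC35D1 (4.18) lie right of 0 while UGT2B11 (-2.62) lies left.

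The steroids that UGT2B enzymes conjugate are made and interconverted by reductases and dehydrogenases, of which 13 of 18 listed passed the filter. In the limma test 8 rose and 0 fell, and at an unadjusted p below 0.05 9 were higher and 1 lower. The lower gene was AKR1D1, a bile acid pathway reductase named after its values were seen. It had 0.235, 0.619 and 0.0766 FPKM in parental cells and was listed at 0 in resistant cells. AKR1D1 passed the threshold without parental replicate 2 (limma adjusted p = 0.0314). It also passed with a pseudocount of 0.01 FPKM, with all genes above 0 in any library, with quantile normalization and without the variance trend (adjusted p from 0.0156 to 0.0465). AKR1C3, which makes testosterone from androstenedione and also reduces other ketosteroids, rose from 0.126, 0.380 and 0.166 FPKM to 79.3, 102 and 90.3 FPKM, a log2 fold change of 8.20 (SE 0.30, limma adjusted p = 1.27e-05). AKR1C2, which turns dihydrotestosterone into the androstanediol that UGT2B15 conjugates, rose from between 0.0893 and 0.261 FPKM to between 8.57 and 11.2 FPKM (log2 fold change 5.37, limma adjusted p = 6.93e-05). AKR1C1 was listed at 0 in parental libraries and had 4.50 to 4.77 FPKM in resistant libraries (limma adjusted p = 3.87e-05). The AKR1C genes are near copies of each other, so the split between them is uncertain. HSD17B11, which oxidises androstanediol-type steroids, rose from between 5.23 and 6.19 FPKM to between 46.1 and 47.7 FPKM (log2 fold change 3.01, limma adjusted p = 8.24e-06). SRD5A3, a steroid reductase family member that acts mainly on polyprenol, rose by 1.32 (limma adjusted p = 1.81e-04), and RDH5, an oxidoreductase of retinol and steroids, by 2.24 (limma adjusted p = 1.89e-04). HSD17B4 and HSD17B10, the most abundant genes of the list, had 292 to 371 and 128 to 155 FPKM over the 6 libraries and were not past the threshold.

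Of 23 tested genes that are known to regulate UGT genes in liver, gut or prostate, 9 rose, 7 fell and 7 were not past the threshold, a median log2 fold change of -0.20 over the 21 with no group at 0. Of 10 androgen response genes, 9 fell and 0 rose (1, ACPP, at an unadjusted p below 0.05), with a median log2 fold change of -2.24. ACPP passed the threshold in the replicate block (limma adjusted p = 0.0474). It also passed with the filter at 1 FPKM, median centring or rescaling without short non-coding and mitochondrial genes (adjusted p from 0.0352 to 0.0481). Besides KLK3, the prostate kallikrein KLK2 fell by 2.49, SLC45A3 by 2.49 and STEAP2 by 0.45. UGT2B15 rose in the same libraries, and UGT2B17, also known to be lowered by androgen, did not pass the test. Any link between the androgen response genes and these UGT genes was not tested. FOXA1, a pioneer factor of prostate epithelium, had 153 to 215 FPKM in parental and 141 to 167 FPKM in resistant libraries and was not past the threshold.

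Nuclear receptors of liver and gut were among the regulators that rose, while other nuclear receptors of the list fell. HNF4G rose from between 0.601 and 1.25 FPKM to between 8.33 and 14.3 FPKM (log2 fold change 3.24, limma adjusted p = 6.22e-04). HNF4A, known to act on several UGT promoters in liver, was listed at 0 in parental libraries and had 0.348, 0.439 and 0.686 FPKM in resistant libraries (limma adjusted p = 0.00405). NR1H4, the bile acid receptor, which is known to raise UGT2B4, was likewise listed at 0 and then had 3.42, 1.65 and 1.77 FPKM (limma adjusted p = 3.18e-04). RXRA, the partner of NR1H4, fell by 2.28 (limma adjusted p = 1.48e-05). The nuclear receptors VDR and PPARG fell by 1.30 and 2.94 (limma adjusted p = 2.59e-04 and 0.0249), and PPARA was not past the threshold. VDR, PPARG and PPARA are named after their values were seen. AHR, which induces UGT1A6 and UGT1A1 in other cells, rose by 1.59 (limma adjusted p = 0.00804), and NFE2L2, which encodes NRF2, fell by 0.97 (limma adjusted p = 0.00211). The NRF2 inhibitor KEAP1 rose by 0.26 (limma adjusted p = 0.0314), and leaving out any library except resistant replicate 2 ended that call, with adjusted p values from 0.0503 to 0.0865. That call was also lost in the replicate block and without the variance trend (limma adjusted p = 0.0890 and 0.129). The corepressor NCOR1 had a log2 fold change of 0.27 (limma adjusted p = 0.0861). It passed the threshold without resistant replicate 1 (0.37, adjusted p = 0.0231), with median centring (adjusted p = 0.0498) and with quantile normalization (adjusted p = 0.0260).

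**Figure D4:**
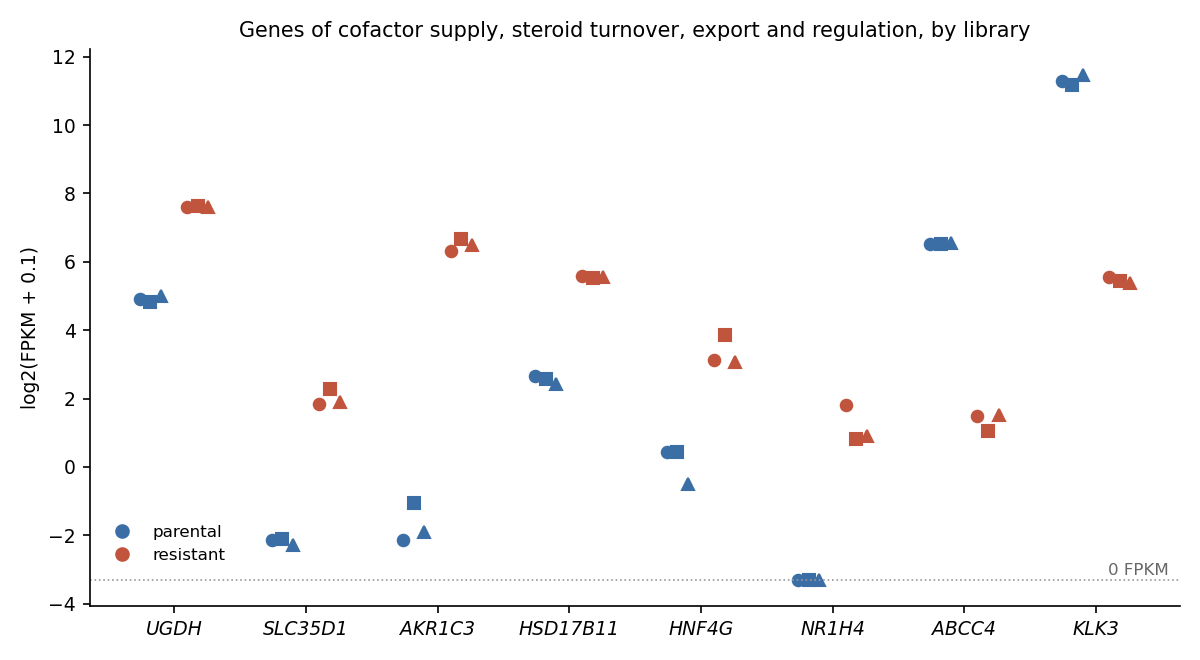
log2(FPKM + 0.1) of 8 genes of cofactor supply, steroid turnover, export and regulation in each library, with parental libraries in blue, resistant libraries in red and the dotted line at 0 FPKM. UGDH, SLC35D1, AKR1C3, HSD17B11, HNF4G and NR1H4 are higher in every resistant library than in any parental one, and ABCC4 (1.99 to 2.75 against 91.5 to 93.4 FPKM) and KLK3 (41.8 to 46.8 against 2321 to 2857 FPKM) are lower.

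Markers of other tissues were examined because UGT2B4, UGT1A1 and HNF4A are typical of liver and gut. Of 11 liver and intestine markers, 6 passed the filter, of which 4 rose, 1 fell and 1 was not past the threshold, and their summed level went from between 2.72 and 4.92 FPKM to between 149 and 160 FPKM. VIL1, an actin-bundling protein of the brush border, rose from between 0.167 and 0.376 FPKM to between 84.3 and 93.9 FPKM, and ALB, serum albumin, from between 0 and 0.582 FPKM to between 49.5 and 57.0 FPKM. CDH17, the intestinal cadherin, was listed at 0 and then had 5.76 to 7.03 FPKM, LGALS4 rose by 3.15 and TTR fell by 2.55. Of the same list, APOB, FABP1 and KRT20 were listed at 0 in parental libraries and at most at 0.0719 FPKM in resistant libraries. SERPINA1 was at most at 0.0698 FPKM and CDX2 at most at 0.130 FPKM in any library. Of 6 fibroblast markers, 2 rose (DCN and LUM), 1 fell (PDGFRB) and 2 of the 5 tested were not past the threshold, with sums of 8.04 to 10.9 and 8.34 to 14.95 FPKM. APOA1 passed the threshold without parental replicate 1 (log2 fold change -1.84, limma adjusted p = 0.0193). COL1A1 passed the threshold without resistant replicate 2 (log2 fold change -1.03, limma adjusted p = 0.0428). The part of these genes in the UGT values was not tested, and in bulk libraries fewer cells of a type and less RNA per cell cannot be told apart.

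Glucuronides leave the cell through transporters of the ABCC family and steroid conjugates enter through organic anion transporters of the SLCO family. Of 11 tested genes, 4 rose and 4 fell. ABCC4, an exporter of conjugated steroids that is also an androgen response gene, fell from 91.5, 91.5 and 93.4 FPKM to 2.71, 1.99 and 2.75 FPKM (log2 fold change -5.17, SE 0.14, limma adjusted p = 4.69e-06). ABCC1, a general exporter of glutathione and glucuronide conjugates, fell from between 81.0 and 97.5 FPKM to between 14.6 and 18.3 FPKM (log2 fold change -2.44, limma adjusted p = 2.89e-05). ABCC5 fell by 0.67 and the transporter SLCO4A1 by 2.85. Low in both groups, ABCC2, an apical exporter of glucuronides, rose from 0.0752, 0 and 0.752 FPKM to 1.64, 1.74 and 1.43 FPKM (log2 fold change 2.79, SE 0.79, limma adjusted p = 0.0294), and 1.07 with a pseudocount of 1 FPKM. Its call was lost with a pseudocount of 0.01 FPKM and without any library except parental replicate 2 (adjusted p from 0.0629 to 0.0873). ABCC3, a basolateral exporter of glucuronides, had 0.265, 0.117 and 0 FPKM in parental and 0.630, 0.269 and 0.661 FPKM in resistant libraries (log2 fold change 1.56, limma adjusted p = 0.0860). The uptake transporter SLCO1B1 was listed at 0 in parental libraries and had 0.146 to 0.342 FPKM in resistant libraries (limma adjusted p = 0.0188). That call was lost with quantile normalization, in the replicate block and without parental replicate 0 or 2 (adjusted p from 0.0507 to 0.0681). ABCC2, ABCC3 and SLCO1B1 are named after their values were seen, and 2 transport genes rather than 4 were called higher without parental replicate 0, resistant replicate 1 or resistant replicate 2. SLCO2B1, which takes up steroid sulfates, rose by 2.83 (limma adjusted p = 0.00346) and SLCO1A2 by 2.68 (limma adjusted p = 0.00472), both from near 0 and at 0.84 and 0.71 with a pseudocount of 1 FPKM. The summed level of the whole list was 222 to 243 FPKM in parental and 36.7 to 42.9 FPKM in resistant libraries.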

How the data were processed

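RNA-Seq values of 3 C4-2B parental and 3 C4-2B enzalutamide resistant libraries were used. Single-end reads of 50 bp were trimmed (TrimGalore 0.4.3) and aligned to GRCh38 (STAR 2.5.3), and Cufflinks 2.2.1 with the GENCODE v25 annotation gave the FPKM values that the authors deposited. The submitters' processing notes instead name Trimmomatic 0.27 and mm10, and the labels name both a TruSeq V2 and a stranded total RNA kit. The table names no unit, and FPKM was taken from the methods and the form of the values. It holds no counts. Read numbers were therefore estimated from the values that 1 read leaves on single-transcript genes, with fragments assumed to be 200 bases long. A value of 0 was read as listed at 0, and no fold change is given against a group at 0.

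The groups were tested on log2(FPKM + 0.1) with limma 3.58.1 (R 4.3.3) and a mean-variance trend, for 24468 genes whose mean reached 0.1 FPKM. Tests were two-sided with Benjamini-Hochberg adjustment over all these genes and a threshold of 0.05, and the fit was tested on simulated data. The members, the lists (other UGT genes, UDP-glucuronate supply, steroid enzymes, sulfation, transport, regulators, androgen response, AHR and NRF2 readouts, and tissue markers) and the tests were chosen with earlier results of these data known. All members were named, and of each list the 4 genes with the highest mean, the 3 with the smallest adjusted p and those on whose role a sentence turns, and some listed genes and motifs are not reported here. Shared 50-base windows were counted on the transcripts of GENCODE 44, with 1 transcript per member, and promoter sequences came from RefSeq. The authors' Cuffdiff calls were not used. Alternatives covered the pseudocount, the filter, the scaling, the variance trend, a replicate block and each library left out. Python 3.11.15, pandas 2.3.3, biopython 1.88 and matplotlib 3.10.9 were used.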

Additional observations from a re-analysis of the deposited data

How the results depend on the processing

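The calls of UGT2B15 (higher), UGT2B28 and UGT2B11 (lower) held under every alternative that gave them a value, with log2 fold changes of UGT2B15 from 1.23 to 1.78 and adjusted p values from 6.94e-04 to 0.00697. The number of members called lower was 0 with the filter at a mean of 1 FPKM, since UGT2B15 alone of the members passed that filter, and the same filter left 1 other UGT gene and 4 transport genes called. With single libraries left out, the number of members called higher was 1 to 2, the second being UGT2B10 without parental replicate 0. UGT2B17 changed sign without parental replicate 1 (0.088) or resistant replicate 1 (0.19), with a range of -0.46 to 0.19 over single libraries left out, and UGT1A6 without parental replicate 0 (-0.107) or resistant replicate 0 (-0.115), with a range of -0.115 to 0.80. HSD17B4 changed sign with median centring (0.0103), quantile normalization (0.0143), rescaling without short non-coding and mitochondrial genes (0.0404) and with single libraries left out (-0.115 to 0.0587). HSD17B10 (0.00696) and TXNRD1 (0.0178) changed sign with quantile normalization, COL3A1 without resistant replicate 2 (-0.0363 to 1.73 over single libraries left out) and DGKD without resistant replicate 0 (-0.42 to 0.0555). The cause of these changes was not tested. Fold changes of genes near 0 in a group moved by over 1.5 times with the pseudocount, as given for UGT2B11 and UGT2B4, and UGT2B10 had 0.31 at 1 FPKM and 2.78 at 0.01 FPKM. The total of genes called in each other list stayed within 1.5 times its value. Counts by direction, an alternative chosen after seeing the data, moved by more for transport genes called higher (0 to 4, against 4), luminal markers higher (1 to 2, against 2), steroid enzymes lower and androgen response genes higher (each 0 to 1, against 0), liver and intestine markers lower (0 to 2, against 1), fibroblast markers higher and lower (each 1 to 2, against 2 and 1) and genes near the UGT2 cluster higher (1 to 2, against 2) and lower (3 to 5, against 5). Those near the UGT1A cluster stayed within 1.5 times.

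Replicate numbers did not pair the libraries, since the deviations of same-numbered libraries had correlations of 0.0080, 0.017 and -0.0030 over genes. A replicate block gave 1 member called higher and 2 called lower, as without it, and 4670 genes higher and 4793 lower in all, against 5405 and 5463. Members other than UGT2B15 rest on at most 39.7 estimated reads per library, so small changes of these genes were not detectable at this depth.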

Other observations

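Sulfation is the other main route of steroid conjugation. Of 8 tested genes of this route, 3 rose, 3 fell and 2 were not past the threshold. PAPSS1, which makes the sulfate donor, rose from 31.0, 39.7 and 29.7 FPKM to 114, 132.4 and 131.5 FPKM (log2 fold change 1.92, SE 0.13, limma adjusted p = 9.82e-05), and SLC35B2, its carrier into the Golgi, by 0.59 (limma adjusted p = 8.88e-04). SLC35B3, a second such carrier, had 4.15 to 5.13 FPKM over the 6 libraries and was not past the threshold. SULT1A2, a phenol sulfotransferase, rose by 3.07 (limma adjusted p = 0.00118). Its near copy SULT1A1 fell by 0.67 (limma adjusted p = 0.0180), a call that was lost without resistant replicate 1 (adjusted p = 0.0577) and in the replicate block (adjusted p = 0.0533). SULT2B1, a sulfotransferase of hydroxysteroids, fell by 1.20 and STS, which removes sulfate from steroids, by 1.75. UGDH and PAPSS1, a donor gene of each conjugation route, were thus higher in every resistant library. PAPSS2, the relative of PAPSS1, had 0, 4.53 and 0.0435 FPKM in parental and 0.925, 0.925 and 2.73 FPKM in resistant libraries. It was not past the threshold (limma adjusted p = 0.361) and is named after its values were seen.

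The readouts of AHR and NRF2, regulators of UGT1A6, were held in a joint list, with 3 genes higher, 4 lower and 3 not past the threshold. Those of AHR are given first and those of NRF2 after them. CYP1A1, the classical AHR target, rose from between 1.23 and 1.63 FPKM to between 9.84 and 10.9 FPKM (log2 fold change 2.80). The other AHR targets of the list are named after their values were seen. AHRR, the repressor of AHR, rose from 0.855, 0.918 and 0.295 FPKM to 1.27, 2.22 and 3.29 FPKM (log2 fold change 1.60, limma adjusted p = 0.0451). The call was lost without any library except resistant replicate 0 and in the replicate block (adjusted p up to 0.142). It was also lost with a pseudocount of 0.01 FPKM, all genes above 0 in any library, quantile normalization or no variance trend. CYP1B1, a steroid hydroxylase, fell from between 6.18 and 7.34 FPKM to 2.62, 2.55 and 5.70 FPKM (log2 fold change -0.99, limma adjusted p = 0.0486). That call was lost without any library except resistant replicate 2 (adjusted p up to 0.142). It was also lost with pseudocounts of 1 and 0.01 FPKM, with all genes above 0 in any library and without the variance trend. Rescaling without short non-coding and mitochondrial genes ended it as well (limma adjusted p = 0.0534). TIPARP had a log2 fold change of 0.41 (limma adjusted p = 0.0937), with every resistant value above every parental one. The NRF2 target NQO1 fell by 2.48 and HMOX1 fell by 2.25 (limma adjusted p = 4.05e-05 and 1.43e-04), and GCLC rose by 0.82. GCLM, an NRF2 readout named after its values were seen, fell by 0.74 (limma adjusted p = 0.00778). TXNRD1 and SRXN1 were not past the threshold, with every resistant value below every parental one.

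In the table, 85 genes start within 1 Mb of the UGT2 cluster, of which 62 are at 0 in all libraries, and of the 11 tested 2 rose and 5 fell, with 1 higher in the replicate block and without parental replicate 0 or any resistant library. On the side of the lower coordinates, TMPRSS11E, 62.0 kb from the cluster, fell by 3.09 (limma adjusted p = 0.00552). YTHDC1 fell by 0.77 (limma adjusted p = 0.0214), a call that was lost without resistant replicate 0, 1 or 2 (adjusted p from 0.0556 to 0.0743), and GCOM2 was not past the threshold. On the other side ODAM fell by 4.49 (limma adjusted p = 0.00148), AMTN went from 1.64, 0.399 and 1.34 FPKM to 0 in all resistant libraries (limma adjusted p = 0.00364), and FDCSP was not past the threshold. UGT2B15 and UGT2B4 thus rose between nearest neighbours that fell or were not past the threshold. Around the UGT1A cluster, 2 of 17 tested genes rose and 5 fell. Of the nearest 3 on each side, SCARNA6 rose by 0.77, AC005538.3 and MSL3P1, which share 1 locus in the table, fell by 0.62 and 1.11, and USP40, DGKD and HJURP were not past the threshold. MSL3P1 lost its call without parental replicate 1 or 2 (adjusted p = 0.0693 and 0.0765), and HJURP passed the threshold without parental replicate 1 or resistant replicate 0 (adjusted p = 0.0353 and 0.0385). USP40 and HJURP passed it in the replicate block (limma adjusted p = 0.0479 and 0.0244), and HJURP with the filter at 1 FPKM (limma adjusted p = 0.0485). Next on the side of the higher coordinates, 144 kb from the cluster, TRPM8, a cold-sensing channel that is also on the androgen response list, had the largest fold change of the 17 genes and is named after its values were seen. It fell from 58.5, 53.4 and 71.2 FPKM to 0.279, 0 and 0.431 FPKM (log2 fold change -7.80, SE 0.61, limma adjusted p = 1.66e-04).

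Over the 6 libraries, the pattern most like that of UGT2B15 among 14777 protein-coding genes, by Euclidean distance of centred log2(FPKM + 0.1), was that of SOAT1, which esterifies cholesterol (distance 0.129), followed by TCEA3 (0.156), NEMP1 (0.188), SMIM14 (0.202) and STARD3NL (0.207). For UGT2B28 it was that of STXBP5L (0.325), then C14orf132 (0.461), SLC9A3R1 (0.463), TSPAN9 (0.467) and TMEM256-PLSCR3 (0.488). Since UGT2B28 was listed at 0 in the resistant libraries, its fall on this scale, and so this order, depends on the pseudocount. STXBP5L still had 11.7 to 12.9 FPKM in resistant libraries. Of 10 UGT pseudogenes found in the table, 6 were at 0 in all libraries and 4 (UGT1A2P, UGT2B25P, UGT2B26P and UGT2B27P) were above 0 in some, and 0 passed the filter, with summed levels of at most 0.112 FPKM in parental and 0.153 FPKM in resistant libraries. UGT1A3, UGT1A4, UGT1A5, UGT1A7, UGT1A8, UGT1A9, UGT3A1 and UGT3A2 were above 0 in some libraries, at 0.203 FPKM or less, and were not tested.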
